A study of Mus musculus with 8 samples.

Results

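A set of 40 genes of skeletal muscle structure and metabolism was followed through 4 sites of the mouse mouth. All 40 (of 33136 entries that name 1 gene) were found by symbol, each as an entry of its own, and they comprise 13 sarcomere genes, 10 genes of excitation-contraction coupling, 9 of energy metabolism, 3 kinases and 5 genes of protein turnover and growth control. The tissue came from wild-type C57BL/6J mice, with 2 replicates each of buccal mucosa (the lining of the cheek), dorsal tongue (upper surface), ventral tongue (underside) and hard palate. Each of the 8 samples was measured by tomo-seq: RNA from 20 sections of 14 µm, taken here as consecutive, was barcoded section by section, and unique molecular identifiers (UMIs) were counted per gene. No treatment or altered allele is named in the labels. They number the replicates without naming the animals behind them. The spread that the p-values rest on may therefore be technical.

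A skeletal muscle fibre is filled with sarcomeres, in which actin and myosin filaments slide past each other between Z-discs, held in register by titin (Ttn) and nebulin (Neb). An action potential is sensed by the calcium channel of the transverse tubule (Cacna1s and its partners), which opens the ryanodine receptor (Ryr1) of the sarcoplasmic reticulum. Glycogen breakdown (Pygm), glycolysis (Pfkm, Eno3, Pgam2), creatine kinase (Ckm) and adenylate kinase (Ak1) keep ATP available, and myoglobin (Mb) stores oxygen. The tongue is largely muscle beneath its mucosa, the cheek has a muscle layer, and the mucosa of the hard palate is bound to bone.

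The promoters of 4 members are shown because these genes fell to different degrees in the palate. Ckm, Casq1, Des and Phka1 all fell there, and Phka1 was among the members that kept the largest share of their level. Each runs from 250 bases before to 50 bases after the RefSeq start in GRCm38.p6, printed 5′ to 3′ on the gene's strand, and capitals mark the E-box CANNTG, the element that myogenic factors such as MyoD can bind. The positions are chr7:19410844-19411143 (plus strand) for Ckm, chr1:75360042-75360341 (plus) for Des, chr1:172219846-172220145 (minus) for Casq1 and chrX:102644197-102644496 (minus) for Phka1.
Ckm: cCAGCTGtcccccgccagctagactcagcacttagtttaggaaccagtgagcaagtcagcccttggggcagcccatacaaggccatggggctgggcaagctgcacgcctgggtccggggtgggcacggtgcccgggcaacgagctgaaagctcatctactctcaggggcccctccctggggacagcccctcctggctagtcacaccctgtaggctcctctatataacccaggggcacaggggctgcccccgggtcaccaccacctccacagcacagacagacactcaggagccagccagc
Des: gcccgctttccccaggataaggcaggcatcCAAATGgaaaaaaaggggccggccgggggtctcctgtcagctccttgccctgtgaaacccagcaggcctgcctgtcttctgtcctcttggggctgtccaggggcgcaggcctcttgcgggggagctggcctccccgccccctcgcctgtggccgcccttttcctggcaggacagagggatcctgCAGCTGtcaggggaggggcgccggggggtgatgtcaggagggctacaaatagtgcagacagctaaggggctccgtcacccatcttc
Casq1: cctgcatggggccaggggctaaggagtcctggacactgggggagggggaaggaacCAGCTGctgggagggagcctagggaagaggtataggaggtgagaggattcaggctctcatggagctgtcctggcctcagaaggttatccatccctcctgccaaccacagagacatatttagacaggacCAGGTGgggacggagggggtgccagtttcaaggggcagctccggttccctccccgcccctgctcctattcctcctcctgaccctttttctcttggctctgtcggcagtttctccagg
Phka1: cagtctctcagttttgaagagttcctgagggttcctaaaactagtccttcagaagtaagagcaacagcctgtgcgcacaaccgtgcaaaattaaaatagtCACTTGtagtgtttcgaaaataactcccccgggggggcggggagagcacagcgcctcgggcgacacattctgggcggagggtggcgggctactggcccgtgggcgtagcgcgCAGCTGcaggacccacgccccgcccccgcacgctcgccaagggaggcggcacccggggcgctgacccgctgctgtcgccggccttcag
All 4 windows hold the form CAGCTG, and none of the 4 genes kept its full level in the palate. Over the 29 members with a promoter in the table, 18 (62.1%) hold CAGCTG in at least 1 window, against 18.3% of all 27025 genes. CANNTG in general, which includes CAGCTG and CACCTG, is in 25 of the 29 (86.2%) and in 75.0% of all genes. CACCTG, read on both strands, is in 7 (24.1%) against 22.6%, and the TATA box TATAAA in 4 (13.8%) against 15.7%. The MEF2 box is in 6 (20.7%) against 3.70% and the CArG box in 2 (6.90%) against 1.81%. These matches describe the letters of the windows and do not show binding.

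Depth ran from 7830471 UMIs in buccal mucosa replicate 2 to 26376536 in hard palate replicate 2, and levels are given as CPM, the share of a gene in the UMIs of a sample or section, with 10000 CPM equal to 1%. Sections varied more, from 2523 UMIs (section 5 of dorsal tongue replicate 1) to 2850676. Buccal mucosa replicate 2 stood apart: its 10 keratinocyte genes summed to 481 CPM, against 8393 to 16236 CPM in the other 7 samples, and its 8 salivary gland genes to 3549 CPM against 16.8 to 36.0 CPM. Counts of members called, the level retained in hard palate and the sums of marker lists that it sets are also given without it. The number of distinct UMIs caps the count of a gene in a section, so the highest levels are compressed; Mb reached 4075 UMIs and Ckm 3880 in a single section.

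The 4 members with the highest mean were Mb, Ckm, Des and Pygm. Mb was measured at 2055 and 4146 CPM in buccal mucosa replicates 1 and 2, 2433 and 2614 CPM in dorsal tongue, 3724 and 3371 CPM in ventral tongue, and 71.1 and 12.4 CPM in hard palate. Ckm was at 1989 and 6030 CPM in buccal mucosa, 1680 and 1605 CPM in dorsal tongue, 2838 and 2719 CPM in ventral tongue, and 116 and 130 CPM in hard palate. Both genes were lowest in the 2 hard palate samples and highest in buccal mucosa replicate 2, with no overlap between hard palate and the rest. Des, the intermediate filament desmin, which smooth muscle also makes, stood at 1239 and 2899 CPM in buccal mucosa, 955 and 1029 in dorsal tongue, 1542 and 1614 in ventral tongue, and 25.7 and 10.96 in hard palate. Pygm, the glycogen phosphorylase of muscle, stood at 1051 and 2282 CPM in buccal mucosa, 792 and 824 in dorsal tongue, 1776 and 1380 in ventral tongue, and 17.5 and 6.98 in hard palate. Both were highest in buccal mucosa replicate 2, and their hard palate values lay far below the lowest value elsewhere.

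**Figure D1:**
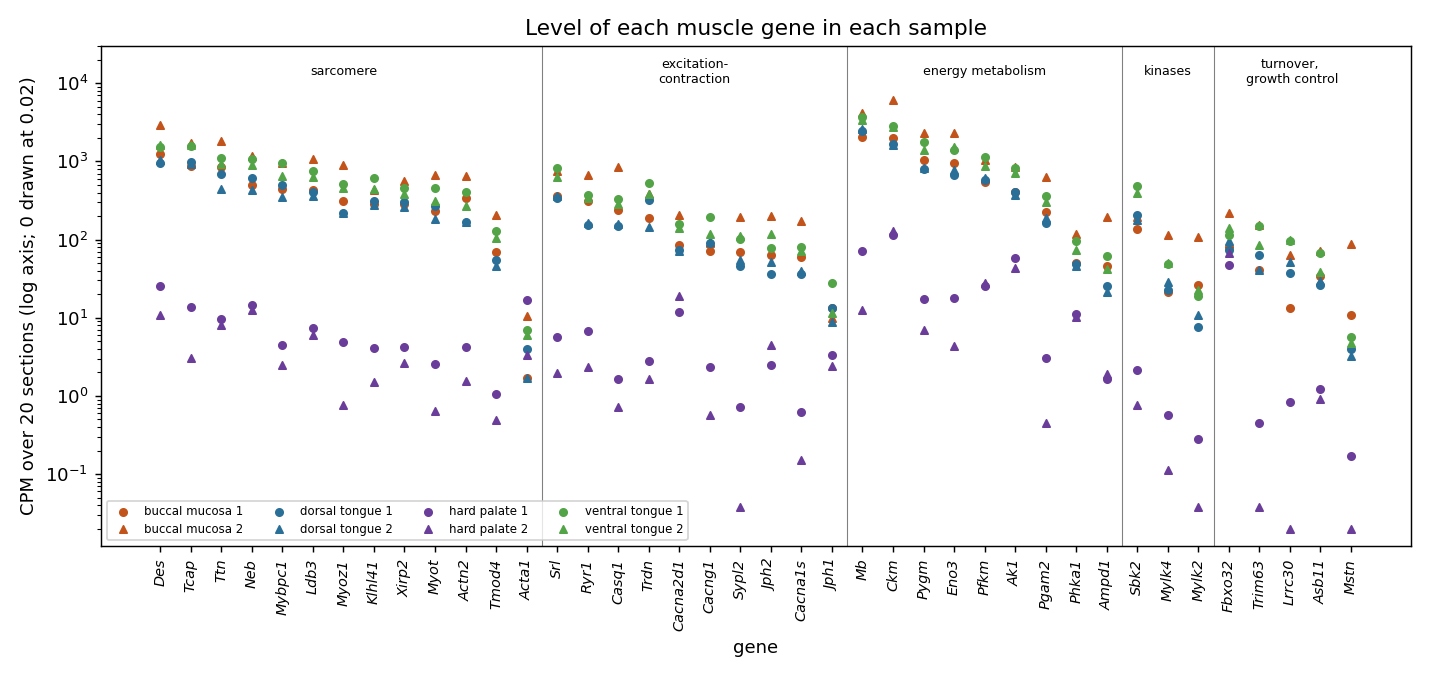
Level of each of the 40 muscle genes (CPM over 20 sections, log axis) in the 8 samples, 1 point per sample, grouped by role. Purple hard palate points lie below all others for 39 genes, and Acta1 is the exception.

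Muscle genes were far lower in hard palate than at the other sites. Of the 40 members 38 fell and none rose (edgeR quasi-likelihood test of hard palate against the mean of the other 3 sites, Benjamini-Hochberg adjusted p under 0.05), where 6.42% of the 18609 genes tested fell and 3.35% rose (9.76% in all). The median log2 fold change was -7.04 over the members and -0.01 over all genes tested. In 39 of 40 members both hard palate samples lay below the 6 others, against 10.2% of all genes tested. In tissue sections, fewer muscle fibres and less muscle RNA per fibre cannot be told apart.

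Among sarcomere genes 12 of 13 fell, with a median log2 fold change of -7.05. Myot, the Z-disc protein myotilin, had values of 234 and 662 CPM in buccal mucosa, 271 and 183 in dorsal tongue, 456 and 316 in ventral tongue, and 2.54 and 0.645 in hard palate, a log2 fold change of -8.05 ± 0.96 (SE; adjusted p = 0.0054). The 2 palate values were the lowest of the 8 and did not overlap with the rest. Titin (Ttn, -6.99), nebulin (Neb, -6.07), the Z-disc actinin Actn2 (-7.03), the titin cap Tcap (-7.52) and the Z-disc proteins Ldb3 (-6.74) and Myoz1 (-7.44) fell by log2 fold changes of similar size. So did myosin-binding protein C (Mybpc1, -7.77), the thin filament cap Tmod4 (-7.20), the actin-binding Xirp2 (-7.05) and the nebulin-stabilising Klhl41 (-7.40), with Des at -6.63.

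All 10 excitation-contraction genes fell, with a median of -6.93. Casq1, the calcium store of the sarcoplasmic reticulum in fast fibres, stood at 236 and 836 CPM in buccal mucosa, 148 and 158 in dorsal tongue, 328 and 288 in ventral tongue, and 1.63 and 0.72 in hard palate (log2 fold change -8.27 ± 0.85, adjusted p = 0.0039). Sypl2, a triad protein, stood at 69.4 and 195, 45.9 and 54.7, 102 and 111, and 0.733 and 0.038 CPM in the same order (-8.24 ± 1.13, adjusted p = 0.0083), where the last value is a single UMI. For each gene the palate samples were the lowest 2 of the 8. The channel subunits Cacna1s (-7.84) and Cacng1 (-6.48), the release channel Ryr1 (-6.34), the triad protein Trdn (-7.44), the reticulum protein Srl (-7.38) and the junctophilin Jph2 (-4.85) also fell.

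All 9 energy genes fell, with a median of -5.18, and the range was wide. Pgam2 (-7.70), Eno3 (-7.04), Pygm (-7.02 ± 0.75, adjusted p = 0.0042) and Mb (-6.48 ± 0.99, adjusted p = 0.0116) were at one end. Pfkm (-5.18), the muscle phosphofructokinase, Ampd1 (-5.18), the AMP deaminase of muscle, Ckm (-4.72 ± 0.65, adjusted p = 0.0083) Ak1 (-3.80) and Phka1 (-3.01) were at the other. The 3 kinases fell to a similar degree: Mylk2, which phosphorylates the regulatory light chain of skeletal myosin, by a log2 fold change of -7.57, Mylk4 by -7.39 and Sbk2 by -7.68. Of the 5 turnover and growth genes 4 fell. Trim63, the muscle ubiquitin ligase MuRF1, had the largest fall of all members: 40.6 and 151 CPM in buccal mucosa, 63.5 and 41.4 in dorsal tongue, 147 and 86.5 in ventral tongue, and 0.451 and 0.038 in hard palate (-8.81 ± 1.17, adjusted p = 0.0075). Its palate values rest on 8 and 1 UMIs. Lrrc30 (-7.42) and the ubiquitin ligase adaptor Asb11 (-5.62) fell too, and Mstn (myostatin, the secreted brake on muscle growth) had 3 UMIs in hard palate replicate 1 and 0 in replicate 2, which allows up to 0.114 CPM in the latter.

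The number of calls depended on the palate samples. It was 29 without hard palate replicate 1 and 27 without replicate 2, each leaving 1 palate sample that is assumed to vary like the other sites. Ckm, Ak1, Phka1, Cacna2d1, Jph1, Jph2, Ampd1, Mylk4 and Mstn were lost in both cases. Without buccal mucosa replicate 2 it was 39, with Fbxo32 added. The log2 fold change of Ckm, for example, was -4.58 without replicate 1 (adjusted p = 0.102) and -4.75 without replicate 2 (adjusted p = 0.068).

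Hard palate retained a median of 0.893% of the mean level in the 6 other samples, against 117% over 18608 genes tested, and 29 of 40 members retained under 2% (1.63% of all genes tested did). The median was 1.06% without buccal mucosa replicate 2, 0.495% without hard palate replicate 1 and 1.25% without hard palate replicate 2. The 6 members with the smallest change were Acta1, Fbxo32, Jph1, Phka1, Cacna2d1 and Ak1, of which Acta1 and Fbxo32 did not pass the test. Jph1, the junctophilin of the triad, kept 20.4%: it was at 3.33 and 2.39 CPM in hard palate, against 13.3 and 9.83 in buccal mucosa, 13.1 and 8.81 in dorsal tongue and 27.6 and 11.4 in ventral tongue (log2 fold change -2.54 ± 0.47, adjusted p = 0.0209). Phka1, the muscle subunit of phosphorylase kinase, kept 14.7%, at 11.1 and 10.2 CPM against 49.6 and 117, 48.7 and 46.6, and 96.4 and 74.6 CPM (-3.01 ± 0.42, adjusted p = 0.0087). In both genes the palate was below all 6 other samples, by a smaller step than for most members.

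Cacna2d1, the auxiliary subunit of the calcium channel, which many tissues make, kept 12.5%: 11.8 and 18.9 CPM in hard palate against 84.5 and 207 in buccal mucosa, 74.0 and 71.6 in dorsal tongue and 157 and 140 in ventral tongue (-3.22 ± 0.47, adjusted p = 0.0098). Ak1 kept 8.50%, at 57.8 and 43.9 CPM against 408 and 858, 405 and 376, and 831 and 713 CPM (-3.80 ± 0.47, adjusted p = 0.0060). The palate samples were again the lowest. Fbxo32, the ubiquitin ligase atrogin-1, was at 47.5 and 67.0 CPM in hard palate, against 80.8 and 218 in buccal mucosa, 74.0 and 94.7 in dorsal tongue and 114 and 143 in ventral tongue. Its groups did not overlap, but the gap to dorsal tongue was small and the log2 fold change of -1.34 ± 0.43 missed the threshold (adjusted p = 0.105). It passed without buccal mucosa replicate 1 (adjusted p = 0.0065), without replicate 2 (adjusted p = 0.0266), without the filter on low counts (adjusted p = 0.0164) and with DESeq2 (adjusted p = 0.0302).

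**Figure D2:**
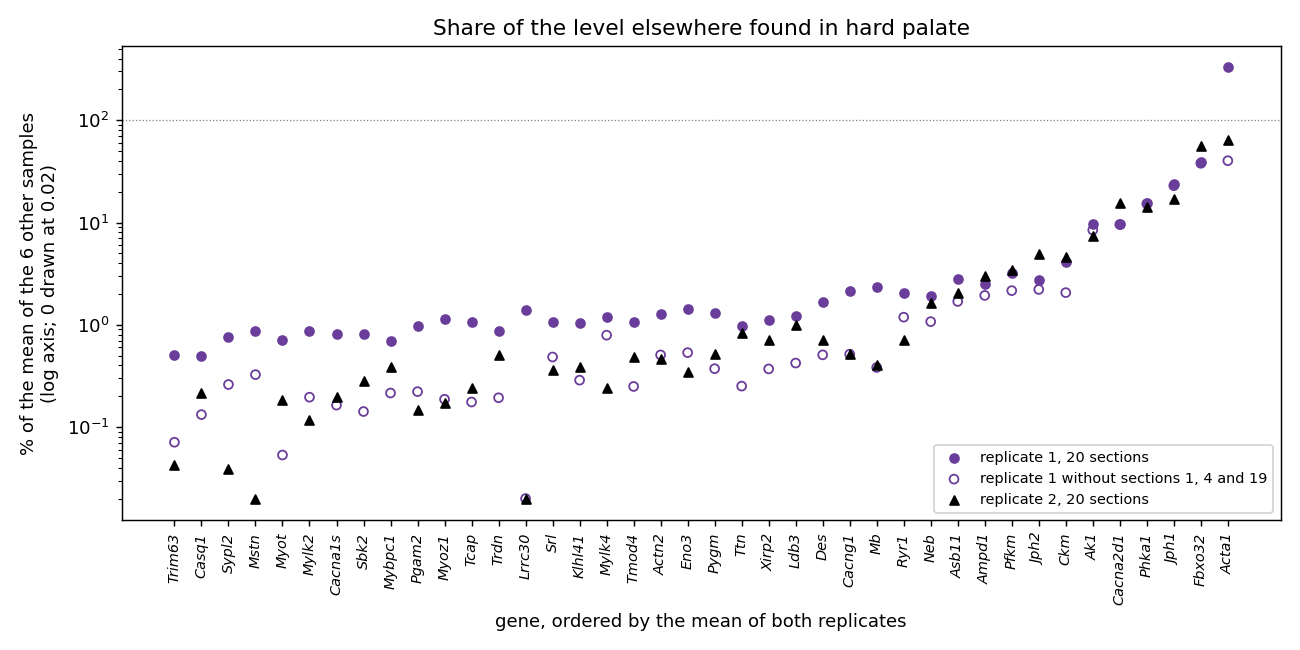
Hard palate level of each gene as a percentage of the mean of the 6 other samples (log axis; dotted line at 100%), for each replicate and for replicate 1 without sections 1, 4 and 19. Most genes lie near 1% or below, and Ak1, Cacna2d1, Phka1, Jph1, Fbxo32 and Acta1 lie highest.

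The order of the members by level also differed in hard palate. Ckm and Fbxo32 were the most abundant members in hard palate replicate 2, at 130 and 67.0 CPM, where Mb was at 12.4 CPM. The ratio of Ckm to Mb UMIs was 10.5 in hard palate replicate 2 and 1.63 in replicate 1 (4.96 without the 3 sections rich in muscle transcripts), against 0.614 to 1.45 in the other 6 samples. Mb and Ckm are the members nearest the UMI limit, which compresses their high levels in cheek and tongue. No ratio in estimated transcripts is given here, and the part of the limit in this contrast was not tested. Fbxo32 and Trim63, a pair of ligases of muscle protein breakdown, stood in a ratio of 0.772 to 2.29 in the 6 other samples. In hard palate Fbxo32 had 842 and 1768 UMIs where Trim63 had 8 and 1.

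Acta1, the actin of the skeletal muscle thin filament, behaved unlike the rest. It was low where muscle genes were abundant, at 1.72 and 10.6 CPM in buccal mucosa, 4.004 and 1.67 in dorsal tongue and 6.92 and 6.04 in ventral tongue. Hard palate replicate 1 was higher than these at 16.9 CPM and replicate 2 lay among them at 3.34 CPM, so the groups overlapped (log2 fold change 0.77 ± 0.78, adjusted p = 0.58). The sign turned to -0.76 without hard palate replicate 1. Acta1 lies at chr8:123891769-123894751 on the minus strand of GRCm38, inside a longer gene annotated on the opposite strand, Gm20388, which had no count of its own. How reads from overlapping genes were assigned is not stated in the labels. The part of this overlap in the values of Acta1 was not tested, and these values remain uncertain. Sbk2, Pfkm and Mb also overlap a gene on the opposite strand (Ssc5d, Senp1 and Apol6).

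In hard palate replicate 1 muscle transcripts were concentrated in 3 sections. Sections 1, 4 and 19 held 0.170%, 0.334% and 0.587% of their UMIs in the 40 genes, while the other 17 sections held 0.0177% to 0.0601%. These 3 sections had 10.4% of the sample's UMIs and 54.5% of its muscle UMIs, and all 40 genes were detected in section 19. Mb was at 323, 739 and 1318 CPM in them, against 4.70 to 111 CPM in the other 17. Ckm was at 385, 789 and 1224 CPM, against 32.1 to 106. Acta1 was at 84.5, 156 and 352 CPM, against 0 to 27.8, and above the highest section of any other site (21.5 CPM among sections of over 50000 UMIs). The 3 sections were picked after the data were seen, by a sum of the 40 genes above 1000 CPM. High values of the members there follow in part from that choice. For 25 of the 40 genes each of the 3 sections exceeded all 17 others. The share of all genes that did so is not given here.

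Pooled over the 3 sections, the members reached a median of 8.14% of their mean in the 6 other samples, from 3.60% (Casq1) to 51.8% (Fbxo32), apart from Acta1 at 2813%. The ratio of Acta1 to Mb UMIs was 0.248 there. It was 0.177 in the other 17 sections and 0.268 in replicate 2, against 0.000640 to 0.00256 in the 6 other samples. Genes outside the members moved too, and the next 3 were chosen after their values were seen. Cox6a2, the muscle form of a cytochrome oxidase subunit, was at 187, 431 and 751 CPM in the 3 sections, against 40.2 to 152 CPM in the samples of other sites and at most 247 CPM in a section of them. Lipf, a lipase of stomach and lingual glands, was at 1368 and 3381 CPM in sections 1 and 4 but at 10.1 CPM in section 19, and at most 2.66 CPM in the 6 samples of other sites. Bpifb1, a secreted protein of glands and airways, followed Lipf with 555, 1061 and 6.71 CPM. The part of such genes in the result was not tested. Without the 3 sections the count of members lower in hard palate was again 38, the median retained was 0.465%, and the Acta1 log2 fold change was -1.13 (adjusted p = 0.37).

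**Figure D3:**
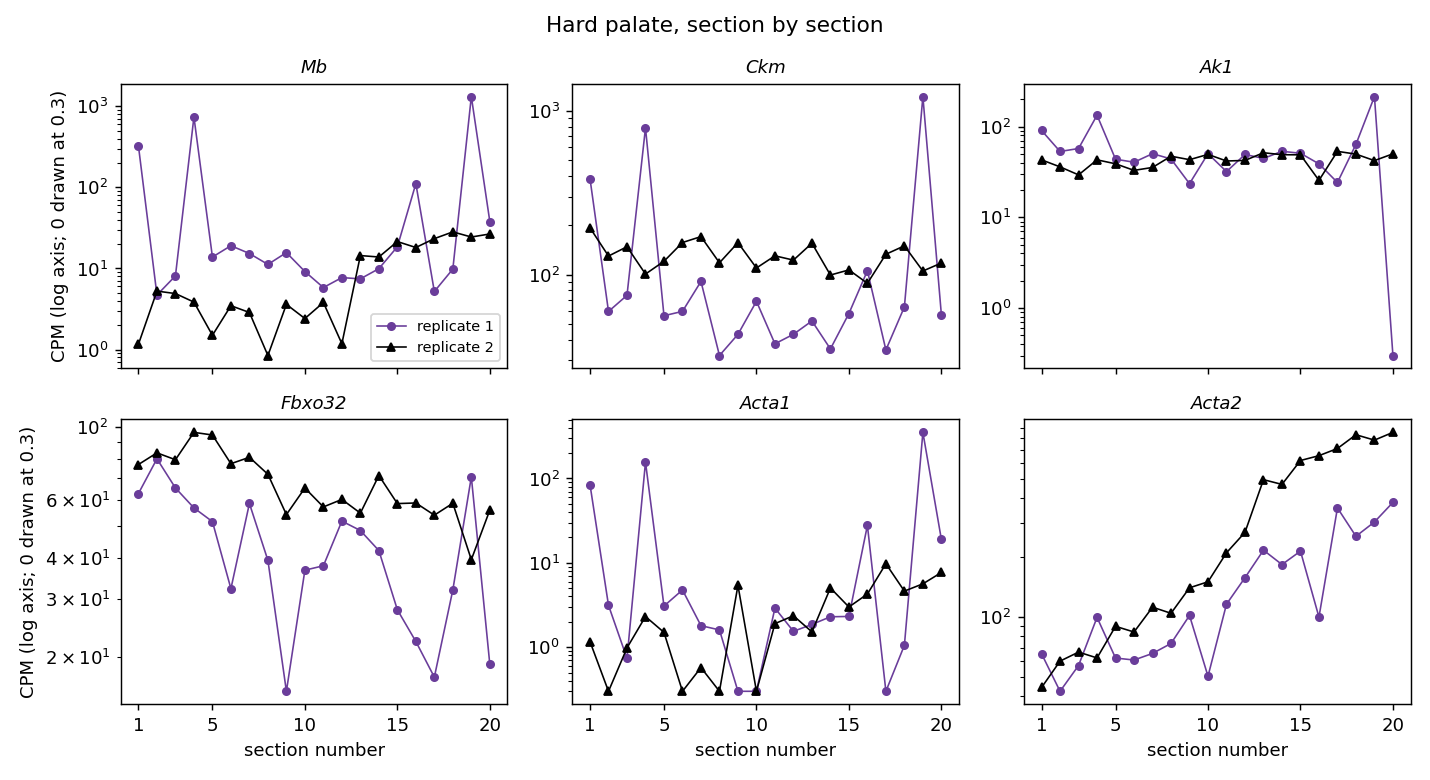
CPM (log axis) of 5 muscle genes and of the smooth muscle actin Acta2 in the 20 sections of each hard palate replicate. Mb, Ckm and Acta1 peak in sections 1, 4 and 19 of replicate 1, and in replicate 2 Mb rises after section 12 while Ckm stays between 88.5 and 193 CPM.

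Through the depth of the tissue, muscle genes were more abundant in later sections. Comparing sections 11 to 20 with sections 1 to 10 within each sample, 36 of 40 members rose and none fell, where 15.7% of the 17905 genes tested rose and 11.9% fell. Under the RLE scaling 36 members again rose, while the balance over all genes turned, from 2815 higher and 2123 lower to 2370 higher and 2653 lower. The count of members was also 36 without buccal mucosa replicate 2. The median log2 fold change was 1.06 over the members and 0.03 over all genes tested. At the 3 sites with muscle, 38 of 40 genes were higher in the later sections of all 6 samples. The share of all genes that met this criterion is not given here. The basal keratinocyte list moved the other way, with 7 of 10 genes lower in later sections, and endothelial genes rose (7 of 7 tested). The part of this shift in cell composition was not tested.

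As a sum, the 40 genes held 0.358% of UMIs in the first 3 sections of buccal mucosa replicate 1 and 2.702% in the last 3. The shares were 0.540% and 2.10% in dorsal tongue replicate 1, 0.473% and 1.98% in dorsal tongue replicate 2, 0.456% and 3.55% in ventral tongue replicate 1, and 1.08% and 2.698% in ventral tongue replicate 2. Buccal mucosa replicate 2 started high, at 2.36%, and ended at 4.78%. Hard palate replicate 1 went from 0.0635% to 0.0820%, but these first and last 3 sections include its high sections 1 and 19. With all sections it held 0.0563% in sections 1 to 10 and 0.0482% in sections 11 to 20. Without its 3 high sections it held 0.0265% in sections 1 to 10 and 0.0270% in sections 11 to 20. Replicate 2 went from 0.0350% to 0.0474%. No section of hard palate held as much as 1% in the muscle genes.

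**Figure D4:**
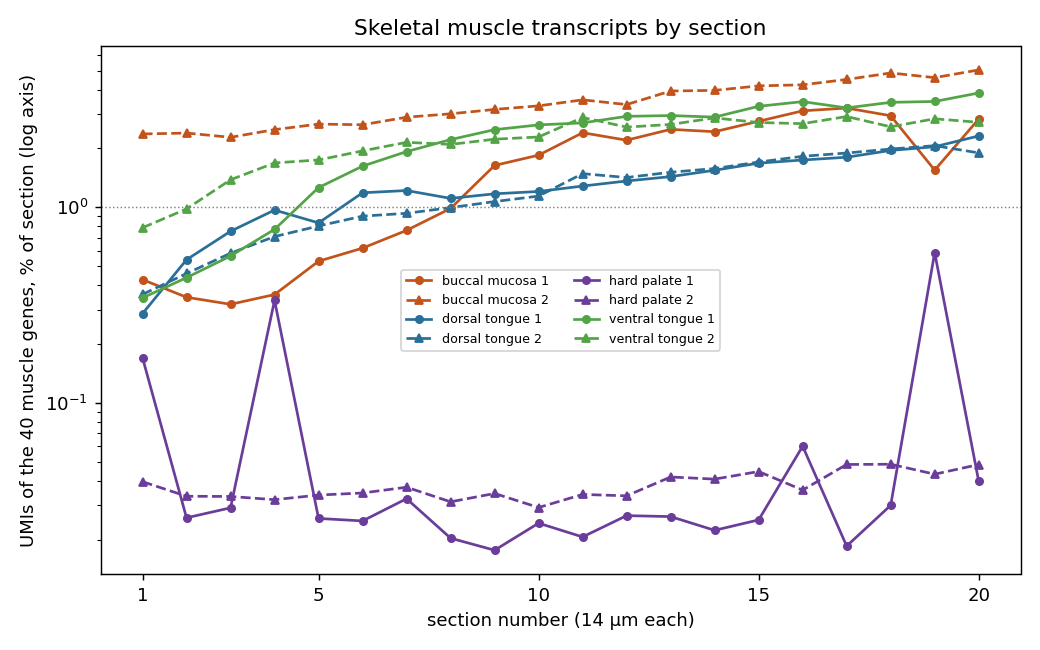
UMIs of the 40 muscle genes as a percentage of each section's UMIs (log axis) against section number, 1 line per sample, with a dotted line at 1%. The 6 samples of cheek and tongue climb to between 1.90% and 5.04% at section 20, and hard palate stays below 0.6%.

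Muscle was taken to begin at the first section whose running median over 3 sections reached 50% of the sample's highest. This was section 9 in buccal mucosa replicate 1 (112 µm from the first section), section 4 in replicate 2 (42 µm), sections 6 and 8 in dorsal tongue (70 and 98 µm) and sections 7 and 4 in ventral tongue (84 and 42 µm). The ranges of the 3 sites overlapped, since replicates of a site differed by 2 to 5 sections. Section 4 of buccal mucosa replicate 2 was close to a tie with section 1. Its smoothed sum was 23835 CPM in section 1, and 50% of its highest was 24303 CPM. With a fixed level of 1% of UMIs the sections were 9 and 1 in buccal mucosa, 6 and 9 in dorsal tongue and 5 and 3 in ventral tongue, and neither hard palate sample reached it. By its own highest level hard palate gave section 20 in replicate 1 and section 1 in replicate 2, its highest values being in isolated sections or little above the rest. At either end of a sample the running median covers only 2 sections. The highest smoothed sum of replicate 1 (3133 CPM) thus rests on its high section 19, and section 20 does not show where muscle begins. The labels do not say from which surface the sections were counted.

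Individual genes reached 50% of their highest level at different sections. Over the 6 samples of cheek and tongue the median was section 3 for Mb, 4 for Fbxo32 and 6 for Ckm, and section 12 for Ampd1 and 12.5 for Mstn. The remaining 35 had medians from 6.5 to 11.5. The early value of Mb was section 1 in buccal mucosa replicate 2 and ventral tongue replicate 2, section 3 in both dorsal tongue samples, section 5 in ventral tongue replicate 1 and section 12 in buccal mucosa replicate 1. Mb and Ckm are the genes nearest the UMI limit. In the deposited estimated transcripts, which correct for it, their medians were section 9 and section 10, while Fbxo32 (section 3.5), Ampd1 (section 11) and Mstn (section 12) moved little.

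**Figure D5:**
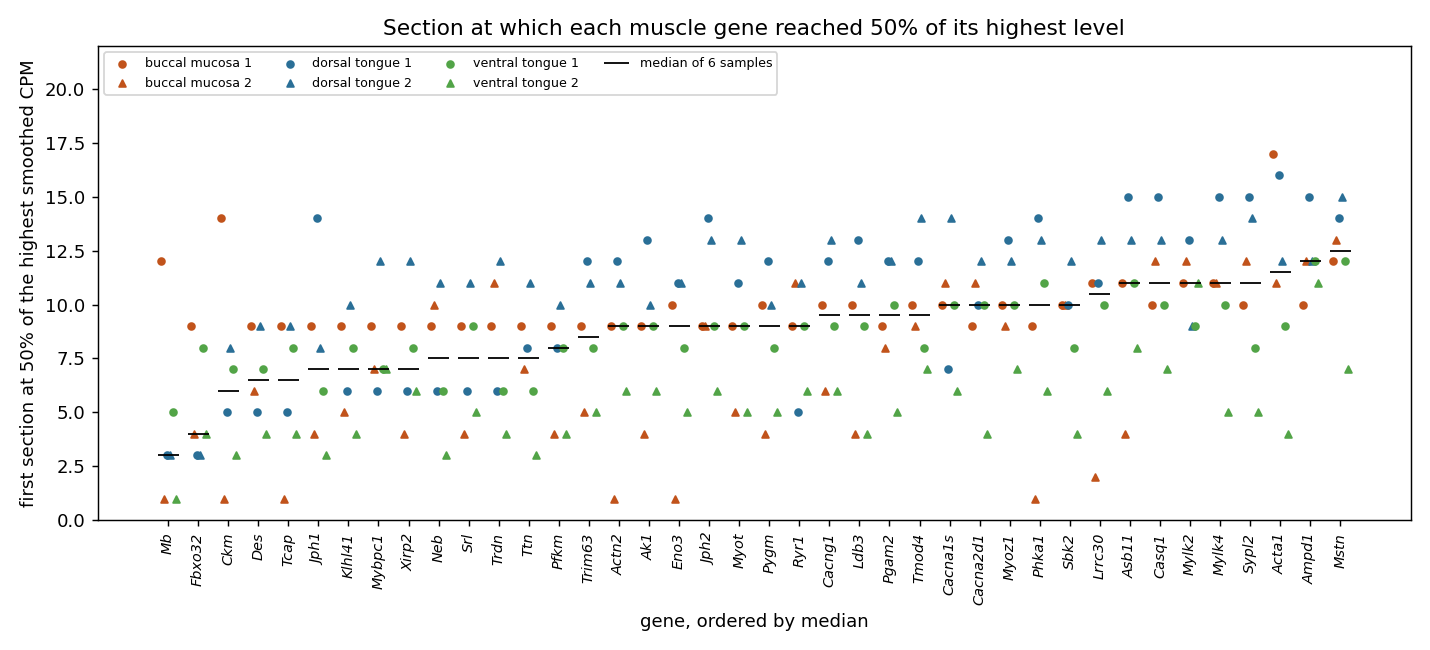
First section at which the smoothed CPM of each gene reached 50% of its highest, in the 6 samples of cheek and tongue (points) with the median (bar). Medians run from section 3 (Mb, compressed by the UMI limit) to 12.5 (Mstn), and samples of 1 gene spread over several sections.

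The 4 members with the largest difference between later and earlier sections were Ampd1, Mylk4, Mstn and Mylk2. Ampd1 rose from 21.2 to 89.0 and from 95.8 to 267 CPM in buccal mucosa replicates 1 and 2, from 11.97 to 36.04 and from 7.99 to 32.7 in dorsal tongue, and from 19.996 to 88.9 and from 25.1 to 59.1 in ventral tongue. In hard palate it went from 1.32 to 2.03 and from 1.33 to 2.39 CPM. All 8 samples were higher later, and the log2 fold change was 1.68 ± 0.15 (adjusted p = 9.95e-05).
Mylk4 had 1.62 ± 0.20, Mstn 1.60 ± 0.19 and Mylk2 1.55 ± 0.11, with higher later values in 6 of 6 cheek and tongue samples for each. Mstn, for example, went from 48.6 to 117 CPM in buccal mucosa replicate 2 and from 4.50 to 21.8 CPM in replicate 1.

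Fbxo32, Ckm, Mb and Pfkm had the smallest differences. Ckm rose in the 6 cheek and tongue samples, from 1117 to 3489 and from 5640 to 6331 CPM in buccal mucosa, from 1194 to 2039 and from 991 to 2132 in dorsal tongue, and from 1932 to 3415 and from 2224 to 3228 in ventral tongue. It was lower later in hard palate, at 132 and 96.0 CPM in replicate 1 and 140 and 123 CPM in replicate 2, and the log2 fold change over all 8 samples was 0.53 ± 0.22 (adjusted p = 0.096). Mb gave 0.58 ± 0.24 (adjusted p = 0.092). In estimated transcripts the values were 0.84 for Ckm (adjusted p = 0.0382) and 1.03 for Mb (adjusted p = 0.00795), and both passed. Pfkm rose by 0.80 ± 0.18 (adjusted p = 0.0073). Acta1 (0.83, adjusted p = 0.0589) and Fbxo32 (0.38 ± 0.19, adjusted p = 0.161) did not pass, and without both hard palate samples all 40 members rose. The share of all genes that rose in that fit is not given here. Over the alternatives to this comparison, calls over all genes ran from 3401 to 5531.

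The later-minus-earlier difference was itself compared between hard palate and the other sites. It was lower in hard palate for 3 of 40 members, Fbxo32, Ak1 and Ryr1, where 1.88% of genes tested were lower and 0.760% higher (2.64% in all). Without the filter on low counts 17 members were lower, among 1697 genes called in either direction. With DESeq2 11 members were lower, and its count over all genes is not given here. Fbxo32 fell with section number in hard palate, from 54.9 to 38.1 CPM in replicate 1 and from 80.3 to 57.1 CPM in replicate 2. It rose elsewhere, from 63.8 to 110 and from 174 to 251 CPM in buccal mucosa, from 55.2 to 87.8 and from 73.5 to 113 in dorsal tongue, and from 69.0 to 142 and from 115 to 172 in ventral tongue. Every palate sample thus moved one way and every other sample the opposite way, with a difference of -1.44 ± 0.16 (adjusted p = 0.0059), which passed in all 15 alternatives. Ak1 went from 57.6 to 58.1 and from 39.3 to 47.4 CPM in hard palate while it rose in the 6 others (-1.23 ± 0.25, adjusted p = 0.0364). Ryr1 went from 7.90 to 5.46 and from 2.03 to 2.59 CPM there while it rose in the 6 others (-1.52 ± 0.32, adjusted p = 0.0409). Both lost the call when either dorsal tongue sample, either hard palate sample or ventral tongue replicate 1 was left out, with adjusted p from 0.0659 to 0.434. They also lost it for sections 1 to 5 against 16 to 20 (adjusted p = 0.0805 and 0.0791), and Ryr1 did without the 3 high sections (adjusted p = 0.0626). Without buccal mucosa replicate 1 there were 6 members and without replicate 2 there were 9. Calls over all genes ran from 16 to 1353 with 1 sample left out. Without hard palate replicate 1, Ttn was called in the other direction.

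Hard palate replicate 2 gave the deeper view of the low levels. Of 28 members with at least 20 UMIs there, 26 were higher in the later sections, and Ckm and Fbxo32 were lower. This count, and the like count for replicate 1 below, have no share of all genes beside them. From sections 1 to 12 to sections 13 to 20, Ttn went from 1.21 to 15.1 CPM, Des from 3.33 to 18.6, Mb from 2.95 to 21.9 and Tcap from 0.682 to 5.47. The smooth muscle and pericyte list, 12 genes, went from 387 to 1492 CPM in sum and the 8 endothelial genes from 85.0 to 251 CPM across the same sections. This split was chosen after the values were seen, and the part of these lists in the muscle values was not tested. In the 17 remaining sections of replicate 1, compared between sections 1 to 10 and 11 to 20 and with no minimum of UMIs, 21 of 40 were higher later. There Des went from 4.20 to 11.9 CPM, Ttn from 2.64 to 2.24, Mb from 11.5 to 11.9 and Tcap from 2.76 to 1.72.

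Cheek and tongue were not told apart by these genes at the threshold used. The test of any difference among buccal mucosa, dorsal and ventral tongue called none of the 40 members (0.0967% of all genes), with 4 at an unadjusted p under 0.05 and 1 called by DESeq2. Dorsal against ventral tongue called none (0.00537% of all genes), with none at an unadjusted p under 0.05 and none by DESeq2. All 40 log2 differences of dorsal minus ventral were nonetheless negative, with a median of -0.85 against -0.01 over all genes. Buccal mucosa against tongue called none (0.0914% of all genes, 0.0645% lower and 0.0269% higher in cheek), with 3 at an unadjusted p under 0.05 and 2 by DESeq2, which called 835 of all genes.

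The smallest p among the 3 sites belonged to Mstn, Mylk2 and Ampd1. Mstn was at 10.8 and 87.4 CPM in buccal mucosa, 3.96 and 3.25 in dorsal tongue and 5.69 and 4.73 in ventral tongue (adjusted p = 0.335). Mylk2 was at 26.1 and 106 CPM, 7.68 and 10.9, and 18.8 and 22.8 (adjusted p = 0.380), and Ampd1 at 46.1 and 192, 25.8 and 21.3, and 62.0 and 41.8 (adjusted p = 0.415). In Mstn and Mylk2 both cheek samples were above all tongue samples, and buccal mucosa replicate 2 carried most of the difference. Without buccal mucosa replicate 1 the 3-site test called 8 members among 2999 genes and the contrast of cheek with tongue 11 among 3748, so that calls rose over all genes. Without replicate 2 neither called a member, with 240 and 131 genes called.

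Other genes of muscle followed the members. Of the 22 further contractile genes tested 17 were lower in hard palate and none higher, with a median log2 fold change of -6.42. Their 26 genes summed to 1149 and 785 CPM in hard palate and to 21914 to 59424 CPM elsewhere. Pvalb, the calcium buffer of fast fibres, was at 3.66 and 0.720 CPM in hard palate against 203 to 3021 CPM (-8.54 ± 1.36, adjusted p = 0.0128), with the M-band gene Myom2 at -7.61. Of 11 mitochondrial and fatty acid genes of muscle 8 fell, led by the mitochondrial creatine kinase Ckmt2 (-7.89) and the oxidase subunits Cox8b (-7.61) and Cox7a1 (-7.19).

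Of 11 satellite cell and myogenic genes tested 9 were lower in hard palate. Myod1, a myogenic transcription factor, had 0 UMIs in both hard palate samples against 3.67 to 12.3 CPM elsewhere. Taking a floor of 3 UMIs over the 2 palate samples, it was at least 109-fold lower than the mean of the 6 others, 7.39 CPM. Myog, another such factor, had 1 and 0 UMIs there, and Myf6 was at 0.225 and 0 CPM against 20.3 to 45.6 CPM. At the neuromuscular junction 7 of 9 genes were lower, among them the acetylcholine receptor subunits Chrne (-7.57) and Chrna1 (-5.83) and the receptor-clustering Rapsn (-5.76), and Chrnd had 0 UMIs in both palate samples. Lower levels in hard palate were thus found in contractile, metabolic, regulatory and synaptic genes of muscle.

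Markers of other cell types were counted in the same test. Of 12 smooth muscle and pericyte genes 4 were lower in hard palate, among them Synpo2 (-3.71), Abcc9 (-3.24) and Kcnj8 (-2.90), and the list summed to 471 and 939 CPM against 624 to 2423 CPM (624 to 1096 without buccal mucosa replicate 2). Of 5 cardiac genes tested 1 was lower, Myl4 (-3.32), and Tnnt2 was at -0.48 (adjusted p = 0.631). None of 10 keratinocyte genes passed, with Col17a1 at 1.27, Krt14 at 1.14 and Trp63 at 0.99, and their sum was 16236 and 14032 CPM against 481 to 12728 CPM (8393 to 12728 without buccal mucosa replicate 2). Of 7 endothelial genes tested 1 was lower, Cdh5 (-2.06); Kdr (-1.20) and Cldn5 (-1.11) missed the threshold. None of 8 fibroblast genes passed (Mfap5 -1.58, Pdgfra -1.04, Fbn1 -0.60).
Of 6 adipocyte genes tested Lpl was lower (-3.90), while Fabp4 (-3.76, adjusted p = 0.0743) and Cidec (1.84) missed. The 7 genes of the list summed to 32.2 and 144 CPM in hard palate against 441 to 2956 CPM elsewhere (441 to 1063 without buccal mucosa replicate 2), with no overlap. None of 5 salivary genes tested passed, with Prol1 at -4.24, Muc19 at -1.95 and Amy1 at -0.74. Of 7 bone and cartilage genes tested 4 were higher in hard palate, the osteoblast factor Runx2 (1.69, adjusted p = 0.026) and, named after their values were seen, Ibsp (5.65), Col2a1 (5.62) and Acan (5.23), while Sox9 (1.36) and Alpl (-0.50) missed. These lists describe the cell types sampled beside muscle, and their part in the muscle values was not tested.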

How the data were processed

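Per the labels' protocols, RNA of single sections was made into CEL-seq2 libraries. Per the submitters' processing notes, Trim Galore 0.6.10, STAR 2.7.9a and GRCm38 were used; no label names a counting program. The authors deposited 3 tables per sample: UMI counts (used here), read counts and transcript numbers. The deposited transcript numbers are estimated counts, which exceed the UMI counts by a correction for UMIs drawn more than once; they were rounded for tests. UMI counts were summed over sections, or over sections 1 to 10 and 11 to 20, filtered (filterByExpr), TMM-scaled and put through the quasi-likelihood test of edgeR 4.0.16 (R 4.3.3). All 8 samples shared 1 spread, and the sample was a block in tests of later against earlier sections. SE is the log2 fold change divided by the square root of F. DESeq2 1.42.0 was an alternative. On simulated data 199 of 200 genes changed 4-fold between hard palate and the other sites were recovered (18090 genes). The changed genes had means above 5 CPM, and 1 fixed spread was used for all genes. No further difference between replicates of a site was simulated, so the recovery checks the fit and does not measure its power in these data. Positions are from GENCODE M21, promoters from RefSeq. Members and lists were chosen with earlier results of these data known. By rule, values per sample are given for members of highest mean, largest fall and smallest change in hard palate, largest and smallest change with section and smallest p among the other sites, and up to 3 genes per list with a mean of at least 5 CPM; 1 gene so chosen is not reported here. Floors (3 UMIs) cover counting error only, while SE also takes in the spread between samples.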

Additional observations from a re-analysis of the deposited data

Results flagged for a closer look

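In 3 members the difference between later and earlier sections was not the same in hard palate as at the other sites, by the test of that difference itself (edgeR, adjusted p under 0.05). The log2 difference, hard palate minus the others, was -1.44 for Fbxo32, -1.23 for Ak1 and -1.52 for Ryr1. Fbxo32 was lower in the later sections of 2 of 2 palate samples and higher in those of 6 of 6 other samples.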

How the results depend on the processing

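The 38 members lower in hard palate numbered 38 to 39 under other scaling, filter, tool and count type, and 27 to 39 when 1 sample was left out. The 36 higher in later sections numbered 36 to 40, and 35 to 40 with 1 sample left out. Replicate numbers were shared by the labels only: deviations of same-numbered samples correlated from -0.21 to 0.55. With the replicate number as a block 37 members were lower (Lrrc30 lost), none differed among the other sites, and all-gene calls were 3 among 3 sites, 0 between tongue sides and 2 between cheek and tongue. Calls over all genes were less stable. Against 1817 for hard palate there were 3728 without a filter, 3109 with DESeq2 and 318 to 5526 with 1 sample left out. Among 3 sites (18) there were 1806, 772 and 0 to 2999, between tongue sides (1) 377, 143 and 0 to 123, and between cheek and tongue (17) 1631, 835 and 0 to 3748. Members called were 4 (no filter), 1 (DESeq2) and 0 to 8 among 3 sites, 0 between tongue sides, and 3, 2 and 0 to 11 between cheek and tongue. For the palate difference in section change (3 members, 472 genes) they were 17 and 1697 without a filter, 11 members with DESeq2, 255 genes in reads, 1 and 10 for sections 1 to 5 against 16 to 20, and 1 to 9 and 16 to 1353 with 1 sample left out. The Acta1 palate change reversed to -1.13 without the 3 high sections, an alternative chosen after seeing the data, and to -0.76 without hard palate replicate 1 (-0.76 to 1.57 with 1 sample left out). Onset at 25% of the highest level moved to section 3 in both dorsal tongue samples and to section 1 in buccal mucosa replicate 2, ventral tongue replicate 2 and hard palate replicate 1. The last of these began at section 4 without smoothing and at section 1 by mean log2(CPM + 1), which put buccal mucosa replicate 2 at section 11 and hard palate replicate 2 at section 13. The level retained was 0.495% to 1.25% with 1 sample left out. The cause of these shifts was not tested. Having 2 samples per site and the few UMIs of Trim63, Sypl2, Mylk2 and Mstn in hard palate limits precision.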
